A study of Homo sapiens with 43 samples.

Results

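The difference between latency-competent cells (LCC) and their parental lung cancer line H2087 was compared between mitogen-low medium (MLM) and mitogen-rich medium (MRM), gene by gene. For each gene the LCC effect, LCC minus parental on the log2(value + 1) scale, was taken in MLM and in MRM, and the MRM effect was subtracted from the MLM effect. The same quantity, called the difference below, equals the medium effect (MLM minus MRM) of LCC cells minus that of parental cells, so each gene could be sorted by which cells moved between media. The test covered the 12535 of 18085 genes whose mean was at least 10 normalized counts over 16 libraries, out of 43 labelled samples in the series.

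The series profiled total RNA of H2087 and of the breast cancer line HCC1954, each as parental cells and as LCC derivatives grown below confluence for 48 h in either medium. LCC in MLM and LCC in MRM had 6 libraries each, 1 from each of 6 derivatives, LCC1 to LCC6. Parental cells in MLM and parental cells in MRM had 2 libraries each, and the parental line carries no treatment other than the medium. Per the labels, H2087 is an established lung cancer line, and each derivative was recovered from an organ that gave no bioluminescence signal. The labels do not say that replicates were separate cultures, so p-values measure the spread between these libraries, which in parental cells may be technical.

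Latency-competent cancer cells are cells that seed an organ, persist there without growing out and can still form tumours later. Mitogens act through receptor kinases and the ERK and PI3K cascades to raise immediate early transcription factors of the AP-1 family and D-type cyclins, and their withdrawal lets FOXO factors and the pocket protein RBL2 hold cells out of the cycle. WNT signalling keeps many epithelial progenitors cycling, and its secreted inhibitor DKK1 binds the LRP co-receptors and slows it.

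Sequencing depth moved with the medium. LCC libraries held 44.6 to 54.0 M recovered reads in MLM and 16.2 to 20.8 M in MRM, and parental libraries held 50.5 and 55.7 M in MLM and 12.1 and 18.1 M in MRM. Depth and medium cannot be told apart in a medium effect. Within a medium the depths of LCC and parental libraries were closer but not equal. Mean depth was 48.7 M in LCC MLM, 18.1 M in LCC MRM, 53.1 M in parental MLM and 15.1 M in parental MRM. The parental MRM library with 12.1 M lay below every LCC library of MRM. The part of depth in the difference was not tested. All groups expressed the epithelial keratin gene KRT8 (group means of 63690 normalized counts in LCC MLM, 77980 in LCC MRM, 42810 in parental MLM and 42790 in parental MRM) and the lung lineage factor gene NKX2-1 (3442, 5157, 3096 and 5344 in that order). EPCAM, KRT7, KRT18 and KRT19 had group means of at least 5308. Other epithelial or lung markers varied more. In that order CDH1 averaged 1484, 3842, 785.1 and 206.8, and MUC1 2270, 7586, 1746 and 595.4. SFTPB averaged 321.5, 1136, 147.9 and 3556, and NAPSA 65.05, 355.4, 62.73 and 166.9. The 10 blood markers summed to 2502 to 5219 normalized counts in LCC MLM, 5107 to 8505 in LCC MRM, 5794 and 5972 in parental MLM and 7207 and 7246 in parental MRM. CD68, a lysosomal protein, made up most of each sum (2470 to 8328), CD79A averaged 102.6 in LCC MRM and at most 7.07 in the other groups, and CD14 averaged 94.7 in parental MRM and at most 26.2 elsewhere. The other 7 stayed under 10 in every library, with the leukocyte and T cell markers PTPRC and CD3E at or below 3.91 and 5.86. The part of these markers in the results was not tested. Fibroblast markers summed to 276 to 697 in LCC MLM, 475 to 959 in LCC MRM, 324 and 372 in parental MLM and 1040 and 1086 in parental MRM, with COL1A1 and PDGFRA the main contributors, while COL3A1 and DCN stayed at or below 3.41 and 2.15. Endothelial markers summed to 735.6 to 1430 in LCC MLM and 1057 to 1915 in LCC MRM. Their sums were 1129 to 1141 in parental MLM and 1460 to 1548 in parental MRM, with ESAM and EGFL7 the main contributors. LCC5 and LCC6 of MRM were closer to each other (chi-square per degree of freedom 6.93) than any other pair of LCC libraries in that medium (25.9 to 111). LCC6 of MRM also correlated more with LCC5 of MLM (r = 0.49 across genes) than with LCC6 of MLM (r = 0.41). With LCC6 left out in both media 1357 genes were called, and with LCC5 and LCC6 of MRM averaged 1269, against 1344 with all libraries.

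Genes called for the difference had a medium effect called in parental cells alone more often than in LCC cells alone. The LCC effect differed between MLM and MRM for 1344 of 12535 genes, 10.7% (limma, adjusted p below 0.05, 16 libraries). It was higher in MLM for 512 genes (4.08%) and lower in MLM for 832 (6.64%). Of the 1344 genes, 746 moved between media in parental cells with no call in LCC cells, 97 moved in LCC cells with no call in parental cells, 86 moved in opposite directions, 399 moved in the same direction by unequal amounts, and 16 had no call for either medium effect. These classes come from a fit that does not pair the LCC libraries by derivative. No call in LCC cells therefore does not show that they stayed unchanged. The parental medium effect was the larger in absolute size for 1263 of the 1344 genes (94.0%), beside 71.2% of all tested genes. The derivatives pair the LCC libraries of the media by label, and with the derivative as a replicate block the count was 3924 (31.3%), with 1696 higher (13.5%) and 2228 lower (17.8%), which included all 1344. In that fit 1626 genes moved in parental cells alone, 510 in LCC cells alone, 393 in opposite directions and 1331 in the same direction. Some called genes also lay in stretches of neighbours along the chromosomes. Of 71 stretches chosen by the size of the difference among neighbours, 66 had the larger median medium effect in parental cells. That choice and the 71.2% over all tested genes favour such a majority, so the count is no separate evidence. The part of these stretches in the calls for single genes was not tested.

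The medium effect was called for 4691 genes (37.4%) in LCC cells, 18.5% higher and 18.9% lower in MLM, and for 4761 genes (38.0%) in parental cells, 20.1% higher and 17.9% lower in MLM. The parental count was 2852 to 3411 without 1 of the parental libraries. Both cells moved the same way for 2693 genes, which is 57.4% of those called in LCC cells and 56.6% of those called in parental cells. Across the tested genes the 2 medium effects had r = 0.44, a description over genes that share libraries. The median absolute medium effect was 0.24 log2 in LCC cells and 0.42 log2 in parental cells. Taken per medium, the LCC effect was called for 1694 genes (13.5%) in MLM and 2783 genes (22.2%) in MRM, with 446 called the same way in both, or 26.3% of the MLM genes and 16% of the MRM genes. Another 102 genes were called in both media with opposite signs.

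The 4 groups also differed in how much their libraries scattered. The median SD per gene was 0.19 log2 among LCC libraries of MLM and 0.22 among those of MRM, against 0.03 and 0.08 for the parental pairs. With only 2 parental libraries a medium, the fit gave all groups 1 estimate of spread. The count of genes called was 409 and 410 without 1 or the other parental MLM library, and 464 and 655 without 1 or the other parental MRM library. Parental libraries of the 2 media did not overlap for 87.0% of all tested genes, and LCC libraries did not overlap for 16.1%, so non-overlap of 2 against 2 parental values says little about any one gene.

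**Figure D1:**
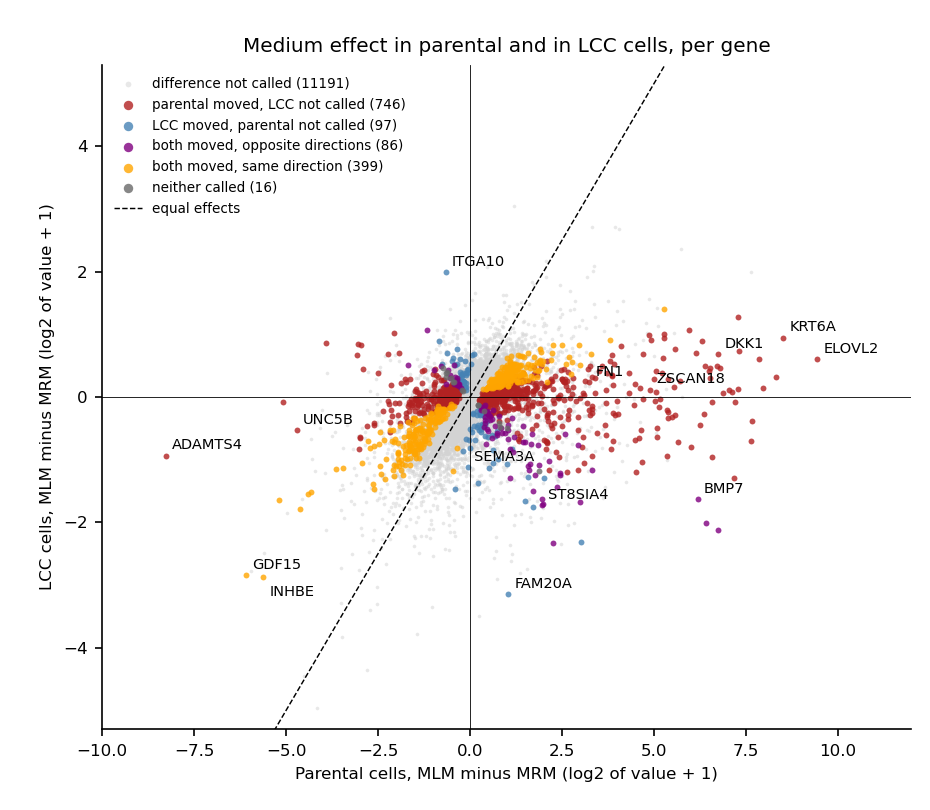
Medium effect (MLM minus MRM, log2 of value + 1) of each tested gene in parental cells (x axis) and in LCC cells (y axis), coloured by which cells moved among the 1344 genes called for the difference, with other genes in grey. The dashed line marks equal effects, and most called genes spread along the x axis, including the 746 that moved in parental cells with no call in LCC cells.

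One set of genes stood high in parental cells of MRM and low in the other 3 groups. ADAMTS4, a secreted protease that cleaves aggrecan, had 1.02 to 6.27 (median 2.73) normalized counts in LCC MLM, 1.95 to 8.97 (median 8.13) in LCC MRM, 1.62 and 1.48 in parental MLM and 783 and 794 in parental MRM. The parental MRM pair lay far above all 14 other libraries, and the LCC libraries of the media overlapped. The difference was 7.34 ± 0.76 log2 (SE; limma adjusted p = 6.9e-05), with a medium effect of -8.27 ± 0.66 in parental cells and -0.94 ± 0.38 in LCC cells (adjusted p = 0.064).

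UNC5B, a netrin receptor of the dependence receptor family, showed the same layout. Its values were 24.8 to 41.8 (median 30.2) in LCC MLM, 19.5 to 68.2 (median 47.3) in LCC MRM, 28.6 and 22.8 in parental MLM and 849 and 567 in parental MRM. Only the parental MRM pair stood apart, and the difference was 4.19 ± 0.53 log2 (limma adjusted p = 0.00029). The tetraspanin gene CD82, known as a metastasis suppressor, had 420.1 to 695 (median 563) in LCC MLM, 257 to 721 (median 446) in LCC MRM, 381 and 407 in parental MLM and 2257 and 2198 in parental MRM. The medium effect of CD82 was -2.50 ± 0.42 log2 in parental cells and 0.38 ± 0.24 in LCC cells (limma adjusted p = 0.24 in LCC cells). CD82 differed by 2.87 ± 0.48 log2 (limma adjusted p = 0.0020). SH3TC1, a gene of SH3 and tetratricopeptide repeats, had 198 to 305 (median 255) in LCC MLM and 183 to 285 (median 218) in LCC MRM, against 161 and 167 in parental MLM and 721 and 749 in parental MRM. Its difference was 2.34 ± 0.26 log2 (limma adjusted p = 9.7e-05), again with no call for LCC cells (adjusted p = 0.28). Paired by label, all 6 derivatives were nevertheless higher in MLM, by 0.099 to 0.41 log2.

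LAPTM5, a lysosomal membrane protein best known from blood cells, had 218 to 1063 (median 414) in LCC MLM, 121 to 703 (median 291) in LCC MRM, 219 and 242 in parental MLM and 2015 and 1893 in parental MRM. In each medium LCC5 and LCC6 were the highest of the 6 derivatives for this gene. Paired by label, all 6 were higher in MLM, by 0.15 to 1.53 log2. The difference was 3.74 ± 0.94 log2 (limma adjusted p = 0.020), and the call was lost without any 1 of the 4 parental libraries (adjusted p up to 0.099). CSF2, the cytokine GM-CSF, had 215 to 526 (median 361) in LCC MLM, 234 to 513 (median 404) in LCC MRM, 269 and 325 in parental MLM and 1608 and 1196 in parental MRM. It differed by 2.15 ± 0.48 log2 (limma adjusted p = 0.011, up to 0.082 without a parental library). KIF13B, a kinesin motor, was steadier in LCC cells, with 626 to 889 (median 757) in MLM and 618 to 794 (median 727) in MRM, against 477 and 468 in parental MLM and 1147 and 1146 in parental MRM. Its difference was 1.34 ± 0.16 log2 (limma adjusted p = 0.00025), a call kept in all 29 alternative settings.

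SPARC, CTGF and PLXNA1 were also called higher, with another layout. Of 18 tested mesenchymal genes, SPARC and CTGF were called higher and FN1 lower (16.7%, beside 10.7% of all tested genes). SPARC, a collagen-binding matricellular protein, was low in parental MLM in place of high in parental MRM: 2035 to 6648 (median 4252) in LCC MLM, 2229 to 5315 (median 3617) in LCC MRM, 1611 and 1594 in parental MLM and 6033 and 5762 in parental MRM. The parental MRM pair fell near the top of the LCC range, and the difference was 2.11 ± 0.52 log2 (limma adjusted p = 0.018, up to 0.088 without a parental library). PLXNA1, a semaphorin co-receptor, differed by 0.99 ± 0.21 log2 (limma adjusted p = 0.0085, up to 0.059 without a parental library), and CTGF, a YAP target, by 1.30 ± 0.39 log2 (limma adjusted p = 0.045). CTGF lost its call in 10 of 29 alternatives (adjusted p up to 0.19).

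A larger set did the reverse and fell away in parental cells of MRM. DKK1, the secreted WNT inhibitor, had 371 to 1631 (median 722) normalized counts in LCC MLM, 97.6 to 4001 (median 449.8) in LCC MRM, 1314 and 1362 in parental MLM and 11.1 and 11.8 in parental MRM. The parental MRM pair lay below all 14 other libraries, and LCC4 of MRM, at 4001, lay above them all. The difference was -6.07 ± 1.35 log2 (limma adjusted p = 0.011), from a medium effect of 6.75 ± 1.17 in parental cells and 0.68 ± 0.67 in LCC cells (adjusted p = 0.46). Without any 1 of 3 of the 4 parental libraries the adjusted p reached 0.064.

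FN1, which encodes fibronectin, was among the most abundant of these genes. It had 63328 to 214054 (median 168976) in LCC MLM, 50487 to 254293 (median 122296) in LCC MRM, 77878 and 75380 in parental MLM and 8481 and 7804 in parental MRM. Every library other than the parental MRM pair lay above both of its values. FN1 differed by -2.99 ± 0.77 log2 (limma adjusted p = 0.022, up to 0.10 without a parental library). CMBL and ZSCAN18 were called in every alternative. CMBL, a hydrolase, had 1684 to 2856 (median 2246) in LCC MLM, 1503 to 2399 (median 1832) in LCC MRM, 2933 and 2892 in parental MLM and 147 and 113 in parental MRM, and differed by -4.28 ± 0.29 log2 (limma adjusted p = 1.5e-06). ZSCAN18, a SCAN domain zinc finger gene, had 749 to 1066 (median 951) in LCC MLM, 496 to 1123 (median 925) in LCC MRM, 895 and 950.2 in parental MLM and 31.6 and 28.4 in parental MRM. Its difference was -4.78 ± 0.32 log2 (limma adjusted p = 1.5e-06), with an LCC medium effect of 0.11 ± 0.16 (adjusted p = 0.61).

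The zinc finger genes ZNF93, ZNF585B and ZIK1 were also lower in parental MRM. ZNF93, a repressor known to bind LINE-1 elements, had 144 to 201 (median 162) in LCC MLM, 96.8 to 180.5 (median 155) in LCC MRM, 135 and 145 in parental MLM and 6.33 and 0 in parental MRM. The parental MRM pair was close to or at 0 while every other library held at least 96.8, and the difference was -5.45 ± 0.70 log2 (limma adjusted p = 0.00030). ZNF585B (-2.48 ± 0.20 log2) and ZIK1 (-2.39 ± 0.27 log2) were also called (limma adjusted p = 6.5e-06 and 0.00012), and both moved in LCC cells too, by 0.50 ± 0.10 and 0.36 ± 0.13. Zinc finger paralogs share sequence, so the split of reads between neighbours is uncertain.

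Promoters of 4 of these genes are shown because the genes moved in parental cells with no call in LCC cells and differ widely in CG content. DKK1, ZSCAN18 and ZNF93 moved in the same direction and CD82 in the other. Each run is 300 bases from RefSeq (GRCh38.p14), 250 before to 50 after the gene start, 5′ to 3′ on the gene's strand, with each CG dinucleotide in capitals. CD82 was high in parental MRM and the other 3 genes were low there.
DKK1, chr10:52314031-52314330, plus strand: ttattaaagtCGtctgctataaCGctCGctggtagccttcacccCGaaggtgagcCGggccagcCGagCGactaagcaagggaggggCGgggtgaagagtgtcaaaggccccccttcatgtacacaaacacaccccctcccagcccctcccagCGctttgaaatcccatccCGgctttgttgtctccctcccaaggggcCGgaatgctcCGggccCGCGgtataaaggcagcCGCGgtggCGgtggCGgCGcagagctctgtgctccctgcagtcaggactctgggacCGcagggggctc
ZSCAN18, chr19:58118355-58118654, minus strand: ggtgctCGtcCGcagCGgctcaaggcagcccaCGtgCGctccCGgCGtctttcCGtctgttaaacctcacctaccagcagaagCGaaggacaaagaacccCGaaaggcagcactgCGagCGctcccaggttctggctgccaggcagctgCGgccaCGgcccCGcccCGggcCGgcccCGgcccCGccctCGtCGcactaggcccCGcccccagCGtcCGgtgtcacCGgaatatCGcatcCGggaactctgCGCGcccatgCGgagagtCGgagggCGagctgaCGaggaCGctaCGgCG
ZNF93, chr19:19900696-19900995, plus strand: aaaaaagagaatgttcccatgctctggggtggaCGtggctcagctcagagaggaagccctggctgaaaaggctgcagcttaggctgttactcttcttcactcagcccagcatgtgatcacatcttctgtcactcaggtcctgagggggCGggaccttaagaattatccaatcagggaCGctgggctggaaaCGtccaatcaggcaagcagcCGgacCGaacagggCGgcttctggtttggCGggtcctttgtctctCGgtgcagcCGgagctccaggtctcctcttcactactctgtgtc
CD82, chr11:44565413-44565712, plus strand: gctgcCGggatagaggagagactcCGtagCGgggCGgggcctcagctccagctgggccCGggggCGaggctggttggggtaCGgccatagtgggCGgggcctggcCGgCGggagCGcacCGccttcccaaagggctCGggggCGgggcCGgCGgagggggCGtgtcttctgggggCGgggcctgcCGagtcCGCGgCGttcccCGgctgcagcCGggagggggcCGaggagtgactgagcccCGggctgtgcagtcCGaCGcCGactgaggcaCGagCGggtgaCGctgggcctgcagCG

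The CG motif reads the same on both strands, and at least 1 was present in 96% of 35116 promoters of the table. DKK1 held 20, ZSCAN18 36, ZNF93 10 and CD82 33. The median was 14 over all promoters of the table and 26 over the 10158 tested genes with a promoter. Among called genes that were low in parental MRM only, 92 of 120 matched a promoter, with a median of 21, and among those high in parental MLM only, 45 of 76 matched, with a median of 32. These counts are descriptions, and DNA methylation was not measured.

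Transcription factors and secreted ligands of development were also lower in parental MRM. SOX4 and SOX21, HMG box factors of progenitor cells, fell there. SOX4 had 915 to 3718 (median 2604) in LCC MLM, 1725 to 4754 (median 2485) in LCC MRM, 1649 and 1750 in parental MLM and 332 and 366 in parental MRM. The parental MRM pair was the lowest of the 16, and the difference was -2.69 ± 0.72 log2 (limma adjusted p = 0.028, up to 0.12 without a parental library). SOX21 had 754 to 1494 (median 1012) in LCC MLM, 680.5 to 1285 (median 1088) in LCC MRM, 774 and 770.1 in parental MLM and 168 and 128 in parental MRM, and differed by -2.41 ± 0.36 log2 (limma adjusted p = 0.00084). The related genes SOX2 and SOX9 were not called, at -0.92 ± 0.88 and -0.20 ± 0.20 log2 (limma adjusted p = 0.55 and 0.58).

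BMP4, a ligand of the BMP pathway, had 126 to 464 (median 324) in LCC MLM, 145 to 664 (median 246) in LCC MRM, 122 and 114 in parental MLM and 11.1 and 9.45 in parental MRM. Parental MRM was lowest and LCC4 of MRM highest, at 664. The difference was -3.35 ± 0.77 log2 (limma adjusted p = 0.013, up to 0.072 without a parental library). TGFB2, a TGF-beta ligand linked to dormancy of disseminated cells, had 251 to 769.5 (median 598) in LCC MLM, 674 to 1842 (median 778) in LCC MRM, 943 and 959 in parental MLM and 237 and 213 in parental MRM. It differed by -2.78 ± 0.55 log2 (limma adjusted p = 0.0057) and was called in all alternatives.

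MME, CRISPLD1 and GRIK2 were nearly silent in parental MRM. MME, the membrane metalloprotease neprilysin, had 14.8 to 512 (median 269) in LCC MLM, 29.1 to 1047 (median 248) in LCC MRM, 138 and 123 in parental MLM and 1.58 and 0 in parental MRM. LCC values spread widely, with LCC6 lowest in both media and LCC4 of MRM highest. The parental pairs held 504 reads in MLM and 1 in MRM, a normalized ratio of 137 with an exact 95% interval of 24.5 to 5429 that covers counting error only. MME differed by -6.62 ± 1.79 log2 (limma adjusted p = 0.030, up to 0.13 over the alternatives). GRIK2, a kainate receptor subunit, held 186 reads in parental MLM and 3 in parental MRM, a ratio of 16.9 (5.69 to 82.6), and differed by -3.80 ± 0.47 log2 (limma adjusted p = 0.00027). CRISPLD1, a secreted CAP domain protein, differed by -6.36 ± 1.90 log2 (limma adjusted p = 0.046) and lost its call in 14 of 29 alternatives.

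Another set was high in parental cells of MLM and low in the other 3 groups. ELOVL2, an elongase of long polyunsaturated fatty acids, had 0 to 13.3 (median 3.84) in LCC MLM, 0 to 6.19 (median 2.68) in LCC MRM, 682 and 698 in parental MLM and 0 and 0 in parental MRM. With no read in either parental MRM library, parental MLM was at least 243-fold higher (floor of 3 reads over the group). The difference was -8.83 ± 1.33 log2 (limma adjusted p = 0.00088), a size that depends on the pseudocount.

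Secreted guidance and growth factors shared this layout. SEMA3C, a secreted semaphorin, had 1.23 to 143 (median 36.9) in LCC MLM, 9.29 to 60.2 (median 28.2) in LCC MRM, 2682 and 2701 in parental MLM and 15.8 and 16.5 in parental MRM. All 14 libraries outside parental MLM were at or below 143, and SEMA3C differed by -7.16 ± 1.59 log2 (limma adjusted p = 0.011, up to 0.064 without a parental library). BMP6, a BMP ligand, had 4.17 to 13.5 (median 9.74) in LCC MLM, 4.40 to 37.1 (median 25.4) in LCC MRM, 413 and 449.6 in parental MLM and 58.5 and 42.5 in parental MRM, and differed by -4.13 ± 0.83 log2 (limma adjusted p = 0.0063). BMP7, another BMP ligand, had 0.570 to 7.85 (median 1.51) in LCC MLM, 4.40 to 11.9 (median 8.23) in LCC MRM, 263 and 295 in parental MLM and 1.58 and 4.73 in parental MRM. LCC cells moved the other way from parental cells (-1.63 ± 0.44 against 6.18 ± 0.77 log2) at levels under 12, and the difference was -7.81 ± 0.89 log2 (limma adjusted p = 0.00014).

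FGF13 and WNT5B were detected at any sizeable level in parental MLM alone. FGF13, an intracellular FGF homologue, had at most 4.83 normalized counts in any LCC library, 353 and 396 in parental MLM and 1.58 and 0 in parental MRM, a difference of -7.26 ± 0.99 log2 (limma adjusted p = 0.00046). WNT5B, a WNT ligand, had at most 3.02 in LCC libraries, 112 and 107 in parental MLM and no read in parental MRM, where parental MLM was at least 38.6-fold higher. Its difference was -6.34 ± 0.86 log2 (limma adjusted p = 0.00045). Neither was called by edgeR, and WNT5B was not called by DESeq2 either (adjusted p up to 0.19 for FGF13 and 1.00 for WNT5B).

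The survival genes BIRC3 and BCL2A1 were highest in parental MLM. Of 26 tested NF-kB cytokine, chemokine and feedback genes, CSF2 and ICAM1 were called higher and BIRC2 and BIRC3 lower (15.4%). Of 31 tested death receptor and BCL2 family genes 3 were called lower (9.68%), near the 10.7% of all tested genes. BIRC3, an inhibitor of apoptosis and NF-kB target, had 928 to 2957 (median 2096) in LCC MLM, 552 to 1260 (median 1023) in LCC MRM, 17778 and 17501 in parental MLM and 1316 and 1189 in parental MRM. Parental MLM exceeded every other library, and LCC cells also rose in MLM, by 0.90 ± 0.29 log2 against 3.82 ± 0.51 in parental cells. The difference was -2.91 ± 0.58 log2 (limma adjusted p = 0.0060). BIRC2 (-0.99 ± 0.19 log2, limma adjusted p = 0.0049), the related ubiquitin ligase, moved in the same direction in both cells. BCL2A1, an anti-apoptotic BCL2 relative, had 1.02 to 12.5 (median 5.78) in LCC MLM, 0 to 5.86 (median 1.63) in LCC MRM, 369 and 372 in parental MLM and 4.74 and 0 in parental MRM, and differed by -6.0 ± 1.22 log2 (limma adjusted p = 0.0065, up to 0.054 without a parental library). The inflammatory chemokine gene CCL2 had its highest values in parental MRM, 1268 and 1179, with 415 and 451 in parental MLM, 0 to 39.4 (median 17.6) in LCC MLM and 3.10 to 156 (median 29.1) in LCC MRM. Its difference was 0.07 ± 2.04 log2 and was not called (limma adjusted p = 0.99).

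KRT6A, a keratin of stressed and basal epithelium whose reads may be shared with near-identical KRT6 copies, had 11.5 to 529.6 (median 102) in LCC MLM, 7.74 to 135 (median 41.2) in LCC MRM, 581 and 592 in parental MLM and 1.58 and 0 in parental MRM. LCC2 of MLM, at 530, came near the parental MLM pair. The difference was -7.57 ± 1.66 log2 (limma adjusted p = 0.010), a call lost under edgeR and without any 1 of 3 of the 4 parental libraries (adjusted p up to 0.063). The oxidative stress genes HMOX1 (heme oxygenase) and GCLM (glutathione synthesis) were the 2 called NRF2 targets of 22 tested (9.09%), a share near that of all tested genes. HMOX1 had 608 to 1163 (median 769.5) in LCC MLM, 756 to 1340 (median 1131) in LCC MRM, 2513 and 2509 in parental MLM and 898 and 955 in parental MRM, and differed by -1.90 ± 0.33 log2 (limma adjusted p = 0.0026). GCLM differed by -0.91 ± 0.19 log2 (limma adjusted p = 0.0085, up to 0.062 without a parental library).

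**Figure D2:**
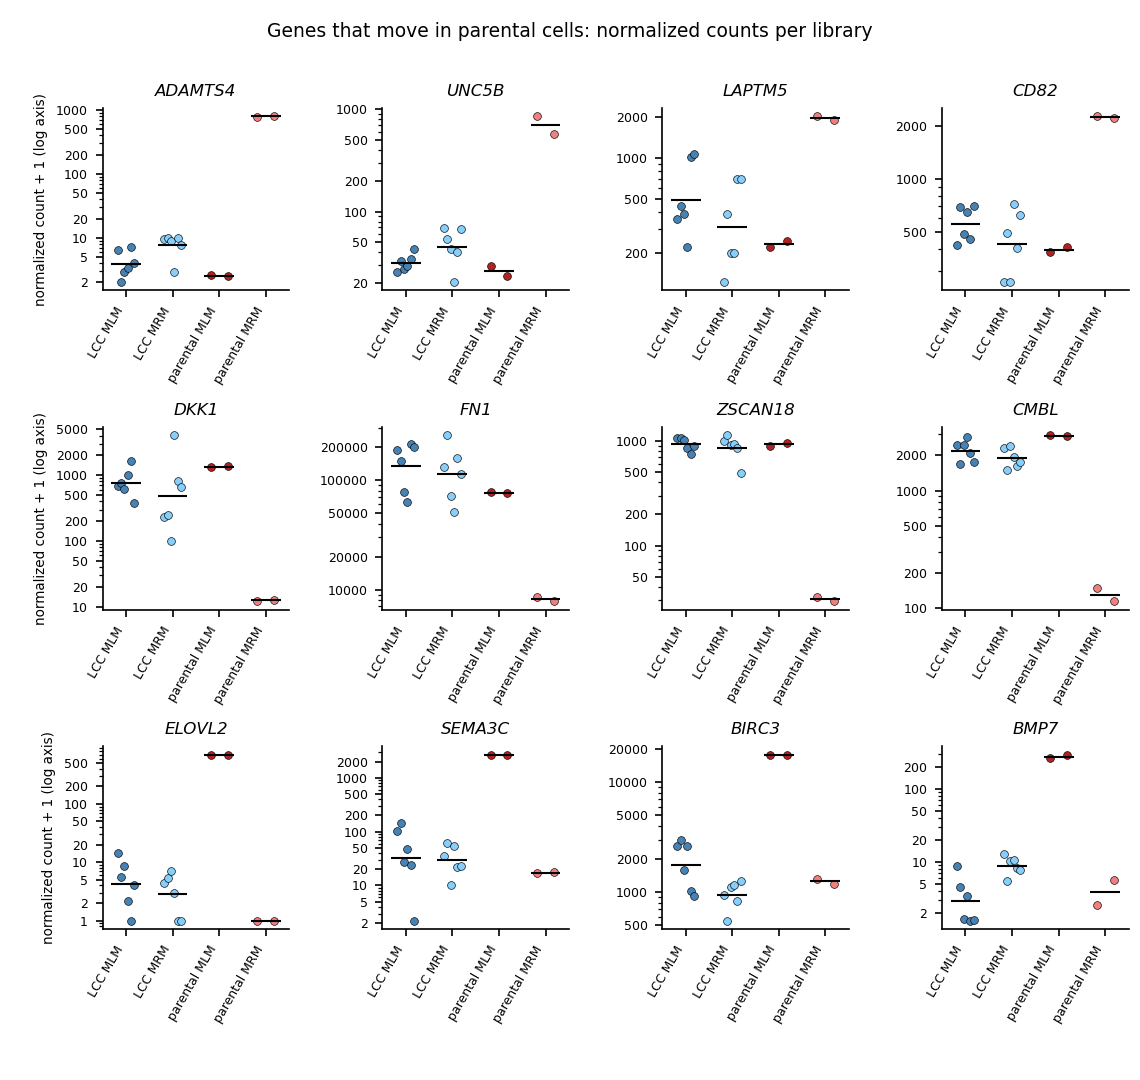
Normalized count + 1 on a log axis for 12 genes in each library, with groups LCC MLM, LCC MRM, parental MLM and parental MRM from left to right and a bar at the mean of the log values. In the top row, the parental MRM pair stands high. In the middle row it stands low, and in the bottom row the parental MLM pair stands high, with BIRC3 and BMP7 also moving in LCC cells.

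How often a single group stood apart was counted over all genes, with a rule chosen after the values were seen: 3 group means within 1 log2 of each other and the fourth at least 1 log2 beyond them. Of the 1344 called genes, 120 (8.93%) had parental MRM low, 76 (5.65%) parental MLM high, 40 (2.98%) parental MRM high and 6 parental MLM low. LCC MRM stood alone and high for 2 called genes, PLAT and SEMA3A, and LCC MLM alone and low for another 2. No called gene had LCC MLM high alone or LCC MRM low alone. Over all tested genes the counts were 314 for parental MRM low, 137 for parental MLM high, 139 for parental MRM high and 34 for parental MLM low. LCC MRM high applied to 46 tested genes and LCC MLM low to 28.

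Fewer genes moved in LCC cells with no call in parental cells. SEMA3A, a secreted semaphorin that repels axons and acts on vessels, had 2840 to 3520 (median 3069) in LCC MLM, 5991 to 8071 (median 6467) in LCC MRM, 1884 and 1847 in parental MLM and 1967 and 1947 in parental MRM. The 6 LCC libraries of MRM all lay above the 6 of MLM, and the parental libraries differed little. The difference was -1.05 ± 0.17 log2 (limma adjusted p = 0.0014), from -1.12 ± 0.08 in LCC cells and -0.07 ± 0.15 in parental cells (adjusted p = 0.74). Paired by label, all 6 derivatives fell in MLM (-1.28 to -0.78 log2), and the call was kept in all 29 alternatives.

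ITGA10, a collagen-binding integrin chain, moved the opposite way. It had 548 to 2671 (median 1922) in LCC MLM, 219.9 to 832 (median 386) in LCC MRM, 699.8 and 671 in parental MLM and 1140 and 1035 in parental MRM. LCC4 of MLM was lowest in its group and LCC5 of MRM highest in its own, and these 2 libraries made the LCC groups overlap. The difference was 2.65 ± 0.70 log2 (limma adjusted p = 0.027, up to 0.12 without a parental library).

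FAM20A, a pseudokinase of the secretory pathway, had 12.3 to 225 (median 71.8) in LCC MLM, 335 to 1288 (median 600.5) in LCC MRM, 80.8 and 62.3 in parental MLM and 41.1 and 28.4 in parental MRM. LCC libraries did not overlap between media, and the difference was -4.18 ± 1.22 log2 (limma adjusted p = 0.041), a call lost in 11 of 29 alternatives. LPCAT1, which remodels phosphatidylcholine of lung surfactant, had 13200 to 20010 (median 15287) in LCC MLM, 20212 to 55649 (median 34216) in LCC MRM, 17696 and 18032 in parental MLM and 8809 and 9039 in parental MRM. All 6 LCC MRM libraries exceeded all 6 of LCC MLM. LPCAT1 differed by -2.08 ± 0.45 log2 (limma adjusted p = 0.0095, up to 0.058 without a parental library), and parental cells ran the other way without a call (1.00 ± 0.39 log2, adjusted p = 0.055).

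Of 30 tested epithelial junction genes, 13 fell (43.3%, beside 18.9% of all tested genes) and 0 rose in LCC cells of MLM, with a median of -1.15 log2. In parental cells 3 fell (10%, beside 17.9% of all tested genes) and 1 rose, with a median of -0.54. All tested genes had medians of 0.01 in LCC cells and 0.04 in parental cells. The difference itself was called lower for 2, TJP1 and CLDN1, and with the derivative as a replicate block for 13, beside 2 called higher (50% of the list, against 31.3% of all tested genes in that fit). TJP1, the tight junction scaffold ZO-1, had 5555 to 6708 (median 6036) in LCC MLM, 6910 to 7881 (median 7442) in LCC MRM, 5177 and 5334 in parental MLM and 4751 and 4396 in parental MRM, with a difference of -0.49 ± 0.11 log2 (limma adjusted p = 0.011, up to 0.079 without a parental library). CLDN1, a tight junction claudin, had 104 to 581 (median 231) in LCC MLM, 353 to 948 (median 570.4) in LCC MRM, 1521 and 1630 in parental MLM and 661 and 425 in parental MRM. It differed by -2.85 ± 0.73 log2 (limma adjusted p = 0.022, up to 0.11 without a parental library).

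KREMEN2, a receptor that works with DKK1 against LRP, fell in LCC cells of MLM. It had 20.5 to 42.0 (median 25.8) in LCC MLM, 44.9 to 109 (median 82.2) in LCC MRM, 134 and 130.1 in parental MLM and 99.6 and 130.0 in parental MRM. No LCC MLM library reached the lowest of LCC MRM, and the difference was -1.59 ± 0.46 log2 (limma adjusted p = 0.039), lost in 12 of 28 alternatives. In the other direction, DNAH1 (an axonemal dynein heavy chain, 1.13 ± 0.22 log2, limma adjusted p = 0.0052, up to 0.053 without a parental library), the metallothionein gene MT1A (1.09 ± 0.31 log2, adjusted p = 0.035, up to 0.16 with 1 library left out), whose reads may be shared with its paralogs, and the sterol carrier gene STARD4 (0.67 ± 0.18 log2, adjusted p = 0.028, up to 0.15 without a parental library) rose in LCC cells of MLM with no call in parental cells.

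The 86 genes that moved in opposite directions included Notch target factors. HES7, an oscillating bHLH repressor, had 6.41 to 69.2 (median 18.7) in LCC MLM, 44.9 to 95.8 (median 71.6) in LCC MRM, 666 and 694 in parental MLM and 141 and 217 in parental MRM. LCC cells fell by 1.64 log2 in MLM and parental cells rose by 1.95 ± 0.71, a difference of -3.59 ± 0.82 (limma adjusted p = 0.012, up to 0.085 without a parental library). HES4 and HES6 did likewise, with differences of -2.16 ± 0.47 and -1.53 ± 0.35 log2 (limma adjusted p = 0.010 and 0.014, up to 0.086 and 0.089 without a parental library). Of the 21 tested genes of the Notch pathway, these 3 were called lower and 0 higher, 14.3% beside 10.7% of all tested genes. With the derivative block 6 were lower and 2 higher, 38.1% beside 31.3%.

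ST8SIA4, a polysialyltransferase, had 51.7 to 225 (median 112) in LCC MLM, 209 to 824 (median 319) in LCC MRM, 366 and 362 in parental MLM and 88.6 and 99.3 in parental MRM. LCC MRM and parental MLM shared the higher level. Its difference was -3.68 ± 0.68 log2 (limma adjusted p = 0.0036), and all 6 derivatives, paired by label, fell in MLM (-1.99 to -1.38 log2). SLC16A9, a monocarboxylate transporter, had 125 to 455 (median 320.0) in LCC MLM, 439 to 1393 (median 787) in LCC MRM, 255 and 262 in parental MLM and 44.3 and 54.4 in parental MRM, and differed by -3.82 ± 0.66 log2 (limma adjusted p = 0.0025). The proteoglycan gene SPOCK1 differed by -3.66 ± 0.83 log2 (limma adjusted p = 0.012, up to 0.070 without a parental library).

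ADAM9, a membrane sheddase, had 8077 to 9512 (median 8905) in LCC MLM, 12500 to 18869 (median 14936) in LCC MRM, 14163 and 14104 in parental MLM and 10759 and 10120 in parental MRM. LCC libraries did not overlap between media, and the difference was -1.18 ± 0.17 log2 (limma adjusted p = 0.00067). SH3TC2, linked to peripheral nerve myelination, crossed over in the other sense, with 712 to 1965 (median 1062) in LCC MLM, 392 to 694 (median 515) in LCC MRM, 436 and 460.0 in parental MLM and 1159 and 886 in parental MRM. It differed by 2.24 ± 0.47 log2 (limma adjusted p = 0.0079, up to 0.062 without a parental library), and LCC libraries of the media did not overlap.

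**Figure D3:**
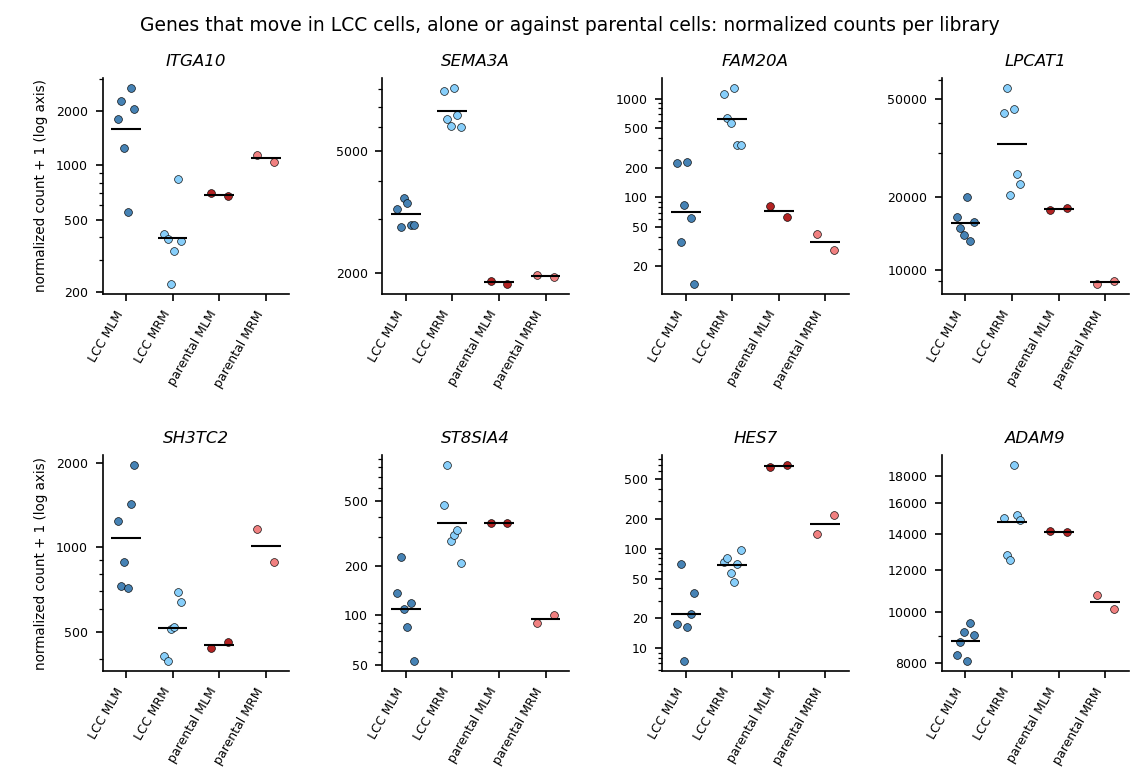
Normalized count + 1 on a log axis for 8 genes in each library, with groups LCC MLM, LCC MRM, parental MLM and parental MRM from left to right and a bar at the mean of the log values. ITGA10, SEMA3A, FAM20A and LPCAT1 moved in LCC cells with no call in parental cells, and SH3TC2, ST8SIA4, HES7 and ADAM9 moved in opposite directions in the 2 kinds of cell.

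GDF15 and INHBE moved the same way in both cells and further in parental cells. GDF15, a secreted TGF-beta relative raised by cellular stress, had 549 to 2172 (median 1082) in LCC MLM, 2124 to 16270 (median 8292) in LCC MRM, 356 and 393 in parental MLM and 28452 and 23155 in parental MRM. Every derivative was lower in MLM, and so were parental cells. The medium effect was -2.85 ± 0.41 log2 in LCC cells and -6.10 ± 0.71 in parental cells, a difference of 3.25 ± 0.82 (limma adjusted p = 0.021, up to 0.11 without a parental library). INHBE, an inhibin chain gene that answers to endoplasmic reticulum stress, had 51.7 to 184 (median 80.5) in LCC MLM, 280.4 to 1500 (median 660.3) in LCC MRM, 66.3 and 66.8 in parental MLM and 4018 and 2734 in parental MRM. LCC libraries did not overlap between media, and INHBE differed by 2.75 ± 0.75 log2 (limma adjusted p = 0.031, up to 0.16 without a parental library).

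Of the 38 tested genes of the unfolded protein and integrated stress response, 27 fell and 1 rose in LCC cells of MLM. In parental cells of MLM 24 fell and 1 rose. The falls were 71.1% of the list in LCC cells and 63.2% in parental cells, beside 18.9% and 17.9% of all tested genes. The medians were -0.90 log2 in LCC cells and -1.03 in parental cells. The difference was called higher for 4 and lower for 0 (10.5%, near the share of all tested genes). With the derivative block it was called for 9 and 0 (23.7%), below the 31.3% of all tested genes in that fit. HSP90B1, the chaperone GRP94, had 29392 to 39132 (median 32397) in LCC MLM, 61543 to 77339 (median 68935) in LCC MRM, 24996 and 24893 in parental MLM and 94323 and 85933 in parental MRM. No media overlapped in either cell, and the difference was 0.78 ± 0.16 log2 (limma adjusted p = 0.0061, up to 0.054 without a parental library). The stress sensor ATF6 differed by 0.62 ± 0.13 log2 and SEL1L, of the degradation complex, by 0.80 ± 0.17 log2 (limma adjusted p = 0.0079 and 0.0090, up to 0.070 and 0.084 without a parental library), and the fourth was HYOU1.

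ULBP2, a ligand of the NK cell receptor NKG2D, had 342 to 415 (median 369) in LCC MLM, 474 to 768 (median 595) in LCC MRM, 297 and 302 in parental MLM and 1267 and 1227 in parental MRM. Both cells fell in MLM without overlap, and the difference was 1.38 ± 0.20 log2 (limma adjusted p = 0.00079). It was the single called member of 15 tested NK cell ligands (6.67%, beside 10.7% of all tested genes). In MLM 10 of the 15 fell in LCC cells (66.7%, beside 18.9% of all tested genes) and 9 in parental cells (60%, beside 17.9%). Of 19 tested genes of HLA class I and antigen processing, 14 fell in MLM in each kind of cell. That was 73.7%, beside 18.9% of all tested genes in LCC cells and 17.9% in parental cells. Their medians were -0.83 log2 in LCC cells and -0.94 in parental cells. For the difference 0 were called by limma (4 at an unadjusted p below 0.05), 0 by edgeR and 2 by DESeq2. With the derivative block 3 were higher and 1 lower (21.1%, beside 31.3% of all tested genes).

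Immediate early and AP-1 genes had the largest called share of any list in the limma fit without the block. There 7 of 15 tested genes were called (46.7%, against 10.7% of all tested genes): 6 lower and IER3 higher. For the medium effect, 5 of the 15 fell in LCC cells of MLM (33.3%, beside 18.9% of all tested genes) and 1 rose. In parental cells 3 fell (20%, beside 17.9%) and 5 rose. FOSL1, the AP-1 subunit FRA1 that follows ERK activity, had 22090 to 32846 (median 25107) in LCC MLM, 11972 to 18162 (median 15679) in LCC MRM, 23859 and 24530 in parental MLM and 6040 and 6877 in parental MRM. Both cells rose in MLM, by 0.76 ± 0.11 log2 in LCC cells and 1.91 ± 0.19 in parental cells, a difference of -1.14 ± 0.22 (limma adjusted p = 0.0052). KLF10, a TGF-beta inducible repressor, had 2772 to 3312 (median 2923) in LCC MLM, 2080 to 3186 (median 2869) in LCC MRM, 2950 and 2949 in parental MLM and 1366 and 1423 in parental MRM. Only parental MRM stood low, and the difference was -0.97 ± 0.17 log2 (limma adjusted p = 0.0032). IER2, an immediate early nuclear protein, differed by -0.68 ± 0.15 log2 (limma adjusted p = 0.012, up to 0.085 without a parental library), and JUNB, JUN and KLF6 were the other 3 called lower. With the derivative block 7 were lower and 1 higher (53.3%, beside 31.3% of all tested genes). Lists with larger shares in that fit included lung epithelial identity genes (73.3%) and WNT inhibitors (71.4%). The median difference over the 15 genes was -0.15 log2, against -0.02 over all tested genes.

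CCND1, the D-type cyclin that mitogens induce, had 26248 to 29955 (median 28173) in LCC MLM, 18999 to 29191 (median 22235) in LCC MRM, 24118 and 24513 in parental MLM and 9106 and 9708 in parental MRM. Parental MRM was the lowest group, and the difference was -1.06 ± 0.18 log2 (limma adjusted p = 0.0026), kept in all 29 alternatives. Cell cycle and DNA replication genes rose in MLM in parental cells for 23 of 40 tested genes and in LCC cells for 12 of 40, and 1 fell in each. Over all tested genes 20.1% rose in parental cells and 18.5% in LCC cells. The difference was called lower for 3 (CDC6, CDC20 and MCM4) and higher for 1 (CDC25C), 10% of the list beside 10.7% of all tested genes. With the derivative block it was called lower for 10 and higher for 1 (27.5%, beside 31.3% of all tested genes). CDC6, which loads the replicative helicase, had 1954 to 2961 (median 2827) in LCC MLM, 2149 to 2777 (median 2392) in LCC MRM, 2610 and 2624 in parental MLM and 1321 and 1420 in parental MRM, a difference of -0.79 ± 0.19 log2 (limma adjusted p = 0.015, up to 0.092 without a parental library).

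Among quiescence genes, 3 of 29 tested were called higher and 1 lower, with a median difference of 0.30 log2. That is 13.8% of the list, near the 10.7% of all tested genes, and with the derivative block 8 were higher and 1 lower, 31% beside 31.3% of all tested genes. RBL2, the pocket protein p130, had 2067 to 2373 (median 2267) in LCC MLM, 2184 to 2635 (median 2427) in LCC MRM, 1741 and 1725 in parental MLM and 3585 and 3325 in parental MRM. LCC libraries overlapped between media while parental MRM stood above and parental MLM below it, and the difference was 0.89 ± 0.11 log2 (limma adjusted p = 0.00029). FOXO4, a forkhead factor restrained by PI3K signalling, had 72.4 to 114 (median 90.5) in LCC MLM, 112 to 145 (median 133) in LCC MRM, 60.3 and 58.4 in parental MLM and 263 and 248 in parental MRM, and differed by 1.56 ± 0.23 log2 (limma adjusted p = 0.00075). TXNIP, a thioredoxin inhibitor and FOXO target, went the other way. It had 4900 to 10293 (median 6545) in LCC MLM, 5703 to 9362 (median 8019) in LCC MRM, 3952 and 3872 in parental MLM and 1496 and 1912 in parental MRM, a difference of -1.39 ± 0.32 log2 (limma adjusted p = 0.014, up to 0.10 without a parental library).

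The shares of the next lists stand beside 10.7% of all tested genes called, and those of BMP and TGF-beta genes and heat shock chaperones were near it. BMP and TGF-beta genes were called lower for 5 of 39 (12.8%) and higher for 0, and SOX factors lower for 3 of 9 (33.3%) and higher for 0. Growth factors and receptor kinases were called lower for 5 and higher for 1 of 37 (16.2%), and axon guidance genes lower for 4 and higher for 3 of 42 (16.7%). Matrix proteases and their inhibitors were called lower for 3 and higher for 3 of 29 (20.7%). Heat shock chaperones were called lower for 3 of 25 (12%), among them HSF1 (-0.49 ± 0.08 log2, limma adjusted p = 0.0024) and its partner chaperone CHORDC1 (-0.75 ± 0.18 log2, adjusted p = 0.014, up to 0.13 without a parental library). Collagen chains, glycolysis and hypoxia genes, WNT target genes and lung epithelial identity genes had 0 limma calls among 17, 34, 9 and 15 tested, where 3, 3, 1 and 6 had an unadjusted p below 0.05. In these lists edgeR called 1, 0, 0 and 0 genes, and DESeq2 called 2, 3, 0 and 3. Lung identity genes nevertheless had a median difference of -1.09 log2, beside -1.57 over 7 tested WNT inhibitors. The medium effect of lung identity genes had medians of -1.63 log2 in LCC cells and 0.33 in parental cells. In MLM 10 of 15 fell in LCC cells (66.7%, beside 18.9% of all tested genes). In parental cells 3 fell (20%, beside 17.9%) and 1 rose. With the derivative as a replicate block, 10 of these 15 were called lower and 1 higher (73.3%). The block raised the counts to 12 lower and 6 higher for BMP and TGF-beta genes (46.2%), 11 and 5 for growth factors and receptor kinases (43.2%), 13 and 6 for axon guidance genes (45.2%) and 7 and 2 for heat shock chaperones (36%), where it called 31.3% of all tested genes. Ribosomal protein genes had 1 call, RPL37, among 60.

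**Figure D4:**
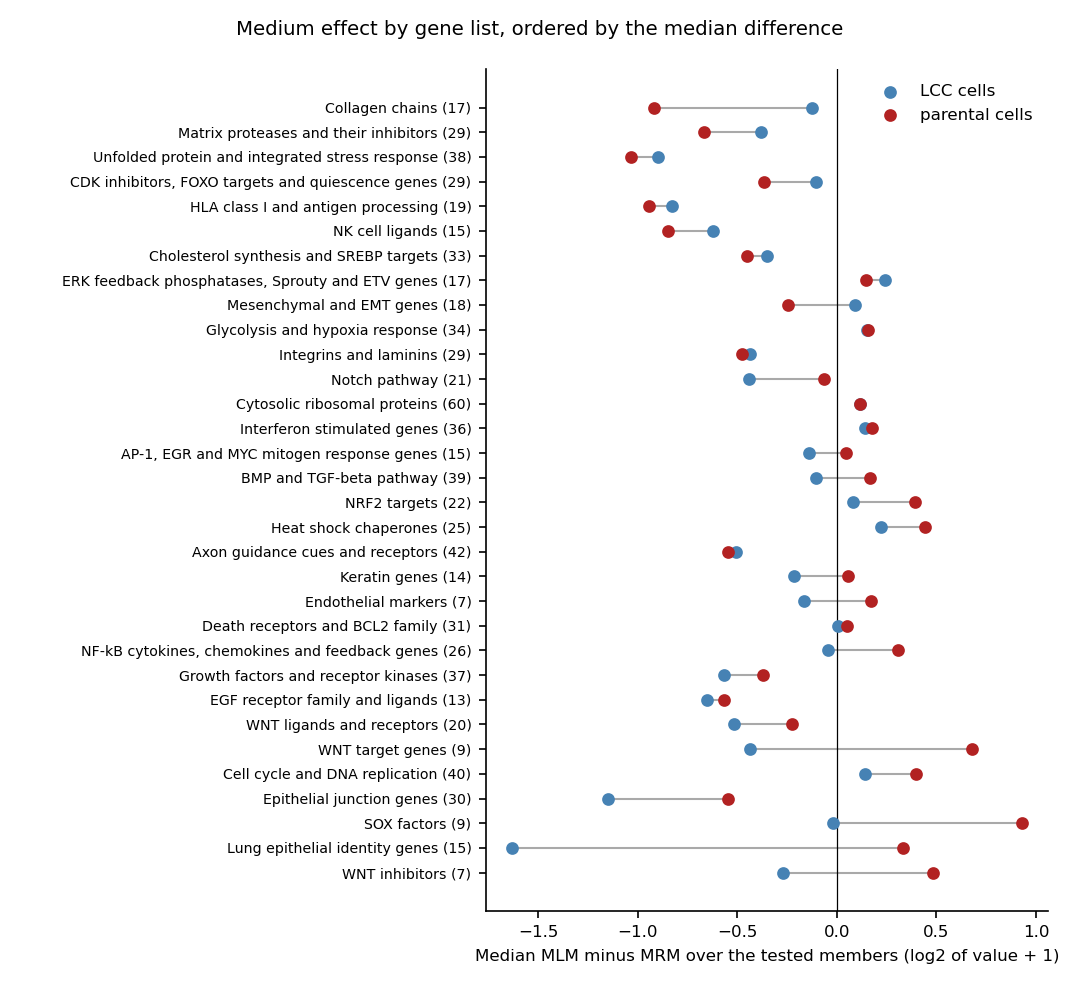
Median medium effect (MLM minus MRM, log2 of value + 1) of each gene list with at least 7 tested members, in LCC cells (blue) and parental cells (red), ordered by the median difference, with the number of tested members in brackets. Unfolded protein and HLA genes sit low in both cells, while lung identity genes sit at -1.63 in LCC cells and 0.33 in parental cells.

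Genes called lower lay among neighbours that shifted with them more often than genes called higher did. Gene order was taken from a RefSeq table (GRCh38.p14), which placed 12487 tested genes. For each gene the median difference of its 10 nearest tested neighbours, 5 on each side, was set beside its own. Among the 1309 called genes with 10 neighbours, 359 (27.4%) had neighbours with a median of at least 0.3 log2 in the same direction, beside 1591 of 12257 tested genes (13.0%). The share was 36.7% for genes called lower and 12.7% for genes called higher. The 13.0% of tested genes pools both directions, so it is no base for either direction alone. For the parental medium effect it was 32.4% of called genes and 18.5% of tested genes, and for the LCC medium effect 4.89% and 3.88%. Neighbouring genes share libraries and are not independent, and the threshold was chosen after the values were seen.

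Whole stretches could be named. On chromosome 8, 47 neighbouring tested genes that run as MAK16 to RB1CC1 had a median difference of -1.06 log2, with 26 called, and medians of -0.02 for the medium effect in LCC cells and 0.80 in parental cells. VDAC3, a mitochondrial outer membrane channel that lies in this stretch, had 1938 to 2085 (median 1983) in LCC MLM, 1405 to 1596 (median 1480) in LCC MRM, 4520 and 4663 in parental MLM and 1197 and 1314 in parental MRM. Parental MLM was the highest group, and the difference was -1.44 ± 0.09 log2 (limma adjusted p = 7.6e-07). BAG4, a death receptor silencer in the same stretch, had 325 to 379.6 (median 353) in LCC MLM, 302 to 348 (median 319) in LCC MRM, 836 and 823 in parental MLM and 229 and 251 in parental MRM, a difference of -1.64 ± 0.13 log2 (limma adjusted p = 5.2e-06). The LCC effect over the stretch had a median of -0.75 log2 in MLM and 0.09 in MRM.

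On chromosome 5, 83 genes that run as C5orf55 to PARP8, which include CMBL and LPCAT1, had a median difference of -0.83 log2 with 29 called. Their median LCC effect was -0.04 log2 in MLM and 0.71 in MRM. On chromosome 19, 26 genes of a zinc finger cluster (ZNF260 to DPF1) had a median of -0.95 with 15 called, and the neighbours of ZNF93 had a median of -3.09. Stretches were runs of at least 8 genes whose neighbours had a median difference of at least 0.3 log2 in 1 direction. The 71 stretches held 1185 genes, of which 307 (25.9%) were called, and 66 had the larger median medium effect in parental cells. Some held no called gene, such as the 33 genes from UBE2T to LEMD1. Counting by chromosome, 68 genes were called lower and 5 higher on chromosome 7 and 36 lower and 2 higher on chromosome 15, against 30 lower and 80 higher on chromosome 3 and 25 lower and 59 higher on chromosome 12.

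**Figure D5:**
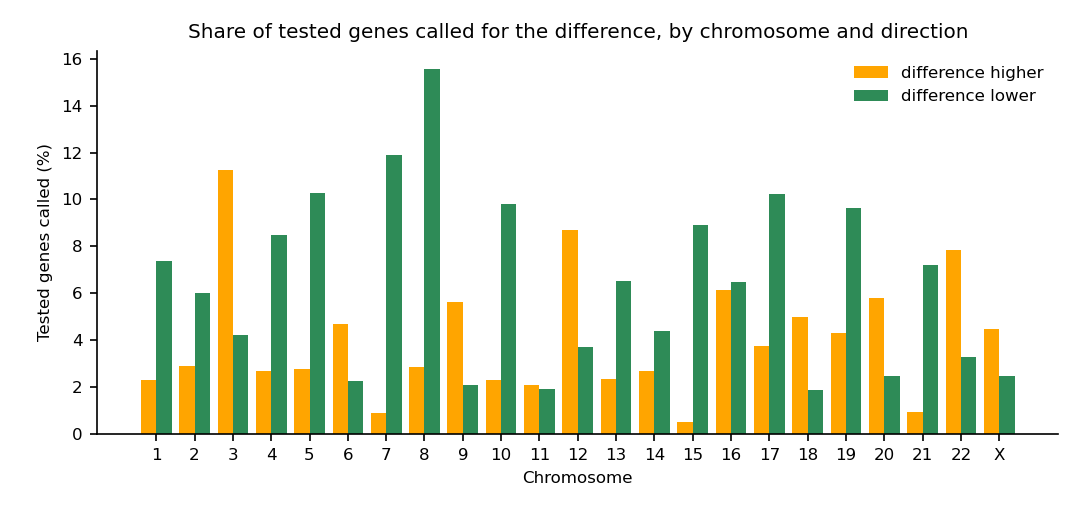
Percent of tested genes on each chromosome called for the difference, as orange bars for genes higher and green bars for genes lower in the LCC effect of MLM than of MRM. Lower calls reached 15.6% on chromosome 8 and 11.9% on chromosome 7, and higher calls reached 11.3% on chromosome 3.

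The same contrast in HCC1954, with 4 LCC libraries from 2 derivatives and 3 parental libraries in each medium, called 24 of 15397 genes (0.156%) by limma. There edgeR called 12 and DESeq2 298, and 1540 genes had an unadjusted limma p below 0.05. Of the 102 called H2087 genes named by rule, 93 were tested in HCC1954, 0 were called by limma (11 at an unadjusted p below 0.05), 0 by edgeR and 4 by DESeq2, and 57 had the H2087 sign. With the derivative as a replicate block, 626 genes were called, among them 6 of the 93, of which 5 had the H2087 sign. GDF15 differed by 1.68 log2 in HCC1954 in that fit (limma adjusted p = 0.0073), SEMA3C by -1.59 (adjusted p = 0.0091), ETV4 by 0.83 (adjusted p = 0.033), ATF6 by 0.51 (adjusted p = 0.013) and KLF10 by -0.47 (adjusted p = 0.022). TIMP2 had the opposite sign, at -0.73 (limma adjusted p = 0.019) against 0.92 ± 0.17 in H2087. Whether the contrast itself differs between the lines was not tested.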

How the data were processed

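Total RNA was sequenced in 16 H2087 libraries, and 14 HCC1954 libraries served for comparison. The deposited values are a normalized signal per gene that the authors made from read counts, with hg19 (GRCh37), DESeq2 1.8.1, HTSeq 0.6.1p1 and Bowtie2 2.2.4 listed in the submitters' processing notes without roles. Dividing by the step of 1 read gave whole reads for 100% of values (tolerance 0.01), and edgeR on these reads called 1345 genes. Size factors recomputed over both media matched the tables within 1.74e-09, so both media share 1 scaling.

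Genes with a mean of at least 10 were fitted on log2(value + 1) with limma 3.58.1 in R 4.3.3 (4 groups, trended variance, two-sided, Benjamini-Hochberg over all tested genes), and errors after ± are SE. Alternatives used edgeR 4.0.16, DESeq2 1.42.0, other scalings, filters and pseudocounts, replicate blocks and each library left out. The fit was tested on simulated data. Same-numbered derivatives, which are the same line by label, correlated across media at r = 0.41 to 0.76, and same-numbered parental libraries at 0.05. Counting intervals and floors cover counting error only.

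Named genes were the 10 largest differences per direction with a mean of at least 100, 4 per class and direction, up to 3 called members with the smallest p of each list, and genes known from an earlier account. The members and lists were chosen with earlier results of these data known. Promoters are from RefSeq (GRCh38.p14). A library labelled as the third parental one of MLM and 12 chromatin samples were not analysed here. Results of some genes are not reported here.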

Additional observations from a re-analysis of the deposited data

Results flagged for a closer look

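The limma test of the interaction between cell type and medium called 512 genes with a higher and 832 with a lower LCC effect in MLM. Among named genes, 1 LCC library stood apart from the other 5 of its group in 20 of 206 groups examined (9.71%). The rule assumes normal values and was applied to normalized counts without a log, so the rate by chance is not known here.

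LCC4 of MRM had 5 of these values: 4001 normalized counts of DKK1 (next library 802), 1842 of TGFB2 (next 1020), 664.3 of BMP4 (next 316), 1047 of MME (next 361) and a low 1.954 of ADAMTS4 (next 6.84). Other libraries of MRM stood high, LCC1 for ENPP3 (2915), LCC5 for ITGA10 (832) and LCC6 for CCL2 (155.6) and FGF13 (1.71, which is 1 read, with the other 5 at 0). In MLM, LCC6 was high for HSP90B1 (39132) and low for RPL37 (17380, next 30171), and LCC2 was low for MCM4 (9588) and high for KRT6A (529.6). LCC4 was high for CHORDC1 (4275) and HES4 (165.4), and LCC3 for GCLM (3837) and FAM171A1 (203.1). LCC1 was high for PPP2R2C (14.49), WNT5B (3.018) and FGF13 (4.829), all 3 at low levels. The DKK1 call was lost without any 1 of 3 of the 4 parental libraries and kept without LCC4 of MRM.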

How the results depend on the processing

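With 2 parental libraries a medium, the number of calls rests on the parental pairs. Leaving out each library in turn gave 409 to 1633 genes called, 81 to 661 higher and 311 to 972 lower, and 1072 to 1633 when only LCC libraries were left out. In the same runs 240 to 875 genes moved in parental cells alone, 25 to 141 in LCC cells alone, 29 to 107 in opposite directions and 110 to 516 in the same direction. The parental medium effect ranged over 2852 to 5108 genes, the LCC effect over 347 to 2007 in MLM and 739 to 2979 in MRM.

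Pairing by replicate block raised the counts. With 6 derivative blocks and parental libraries as 1 block, 3924 genes were called (1696 higher, 2228 lower), in classes of 1626 (parental alone), 510 (LCC alone), 393 (opposite) and 1331 (same direction). With parental numbers as 2 further blocks, 3426 were called (1446, 1980), in classes of 1510, 412, 331 and 1127, which kept 1343 of the 1344. In HCC1954 the block gave 626. No named gene lost its call under either block.

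DESeq2 called 2007 genes in all, 851 of them higher, with 220 in the LCC-alone class, 621 in the same-direction class and 2562 for the LCC effect in MLM. Equal library totals gave 146 in the LCC-alone class and 44.8% of calls higher, against 38.1%. Weights by cell type, chosen after seeing the data, gave 4165 (1857, 2308), classes of 2566, 278, 209 and 1038, and 8857, 4354 and 5756 for the parental medium effect, the LCC effect in MLM and that in MRM. Of 102 named called genes, 41 were called under every alternative run and 9 were not called in 10 or more. Their signs never turned. CCL2, not called, turned negative at a pseudocount of 0.5 (-0.13), with LCC5 and LCC6 of MRM averaged (-0.015, chosen after seeing the data) and without single LCC libraries (-0.45 to 0.72 over all libraries left out). The cause of these shifts was not tested.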
